A study of Mus musculus with 8 samples.

Results

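The 9 genes described here, Mat1a, Gnmt, Pemt, Ahcy, Bhmt, Bhmt2, Cbs, Cth and Shmt1, encode the main liver enzymes of the methionine cycle, of transsulfuration and of the folate supply to the cycle. They were taken by gene symbol, each matched to 1 Ensembl identifier of the GRCm38 annotation, from the 52636 genes in the count tables, and all 9 were among the 15248 genes with enough counts to be tested. The samples were livers of 8 male wild-type C57BL/6J mice, 4 given AAV8-TBG-GFP and 4 given AAV8-TBG-AGXT, an adeno-associated virus that carried green fluorescent protein or human AGXT, each driven by the TBG promoter, which is active in hepatocytes. AGXT is the liver enzyme that converts glyoxylate to glycine. Injection took place at 7 weeks of age, and from 8 weeks of age both groups ate a diet rich in fat, fructose and cholesterol for 24 weeks, which causes metabolic dysfunction-associated steatohepatitis (MASH), so the comparison holds no liver without the diet. The groups are called AAV8-GFP (mice 303, 311, 314 and 315) and AAV8-AGXT (mice 308, 309, 316 and 319), and the comparison asks how the hepatic transcripts differ when AGXT is overexpressed on the MASH diet.

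Liver cells make S-adenosylmethionine, the methyl donor of most methylation reactions, from methionine, and each methyl transfer leaves S-adenosylhomocysteine, which is split into adenosine and homocysteine. Homocysteine is either methylated back to methionine, with betaine or a folate as the methyl donor, or joined to serine and cleaved to cysteine, which is the route called transsulfuration. The cycle touches glycine because Gnmt methylates glycine to sarcosine, and the mitochondrial enzymes that oxidize dimethylglycine and sarcosine return glycine.

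Some of these genes have near copies, which bear on what a read count can show, so the stretches of coding sequence that differ most are printed here from the GENCODE M21 transcripts (GRCm38). Ahcy and the single-exon gene Gm4737, a copy on chromosome 16 (46152985 to 46155077, minus strand), both have 1296 coding bases and differ at 4 of them, which is 99.7% identity. Counted from the first coding base of Ahcy, the differences are C459T, G474A, C1050T and C1068T. The 2 lines below show coding bases 355 to 474 of each, with the bases that differ in capitals.
Ahcy: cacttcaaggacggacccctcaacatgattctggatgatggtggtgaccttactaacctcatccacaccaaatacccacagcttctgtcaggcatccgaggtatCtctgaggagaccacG
Gm4737: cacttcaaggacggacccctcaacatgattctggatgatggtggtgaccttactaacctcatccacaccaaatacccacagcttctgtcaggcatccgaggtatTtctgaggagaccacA

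Bhmt and Bhmt2 lie close together on chromosome 13 and are related, but they are far enough apart in sequence for reads to be told apart. Their coding sequences, of 1221 and 1089 bases, were 74.9% identical over 1089 aligned bases and shared none of their windows of 67 bases, the read length after trimming. The lines below show Bhmt coding bases 334 to 453 and Bhmt2 coding bases 307 to 426, where 45 of 120 bases differ, again in capitals.
Bhmt: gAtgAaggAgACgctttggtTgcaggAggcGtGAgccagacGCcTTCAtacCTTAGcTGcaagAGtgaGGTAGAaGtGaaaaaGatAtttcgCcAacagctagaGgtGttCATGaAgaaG
Bhmt2: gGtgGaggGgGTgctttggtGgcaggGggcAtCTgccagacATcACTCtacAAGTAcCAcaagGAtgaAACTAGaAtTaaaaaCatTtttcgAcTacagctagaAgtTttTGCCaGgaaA

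RefSeq promoters on GRCm38.p6 were at hand for 7 of the 9 genes, as 8 start sites. The 250 bases before each start were searched on both strands for 7 short motifs. AGGTCA, the half-site that nuclear receptors bind, lay before the starts of Gnmt, Ahcy and Bhmt, and in 14% of all 32851 promoters in the table. Bhmt held it 3 times, beginning 234, 72 and 47 bases before the start. CACGTG, the E-box, lay 229 bases before the start of Cbs and in 6.02% of all promoters. The other 5 motifs were in none of the 8. CAAAGTCCA, bound by HNF4, was in 0.384% of all promoters. AGAACA, the glucocorticoid receptor half-site, was in 16.1%. TTGCNNAA, a C/EBP site, was in 9.56%. TGACNNNGC, the core of the antioxidant response element, was in 10.2%. TATAAA, the core promoter element, was in 12.4%. No 2 matches overlapped. The promoters of the 2 called genes that held AGGTCA are printed 5′ to 3′ on the gene's strand, with the match, TGACCT on this strand, in capitals. That of Gnmt is chr17:46729166-46729415, minus strand, and that of Ahcy is chr2:155074498-155074747, minus strand.
Gnmt: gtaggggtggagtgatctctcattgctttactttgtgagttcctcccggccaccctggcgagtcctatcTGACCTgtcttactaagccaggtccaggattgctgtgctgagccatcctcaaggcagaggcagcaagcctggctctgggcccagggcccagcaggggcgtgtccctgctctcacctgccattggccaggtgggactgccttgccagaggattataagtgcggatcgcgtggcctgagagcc
Ahcy: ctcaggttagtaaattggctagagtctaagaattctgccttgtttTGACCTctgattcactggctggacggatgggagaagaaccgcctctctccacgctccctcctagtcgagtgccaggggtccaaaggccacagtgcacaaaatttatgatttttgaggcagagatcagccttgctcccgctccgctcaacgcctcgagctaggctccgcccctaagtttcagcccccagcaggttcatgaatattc

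Gene counts summed to 17095433 to 28780140 read pairs in a library. The 9 members had between 1956 and 152396 counts in each mouse, so that counting error was small beside the spread between mice. Over all genes tested, the common biological coefficient of variation was 23.3%. Within a group, the members' coefficients of variation ran from 2.64% (Ahcy in AAV8-GFP) to 45.3% (Bhmt in AAV8-GFP). In mouse 308, 56.3% of the tallied pairs fell on genes, against 62.4% or more in the others. TMM factors, which scale libraries for composition, were 1.02 to 1.14 in AAV8-GFP and 0.83 to 1 in AAV8-AGXT. The transgene was the human gene, so the row of mouse Agxt is no clean check of it. Mouse Agxt stood at 148 to 179.9 CPM (counts per 1000000 TMM-scaled counts of the library) in the 4 control livers and at 201 to 405 CPM in the treated ones (edgeR, adjusted p = 0.0489). Its adjusted p ranged from 0.0316 to 0.146 when 1 mouse was left out and from 0.0021 to 0.0766 under 9 other tests, scalings and filters, of which 3 kept the call. The 9 hepatocyte markers summed to 62698 to 71586 CPM in AAV8-GFP and to 72314 to 102376 CPM in AAV8-AGXT, with 0 of the 9 called by edgeR, DESeq2 or limma-voom and 2 higher at an unadjusted p under 0.05. No share of all genes at this unadjusted threshold is given. The 3 kidney markers summed to at most 0.0612 CPM. In bulk liver, fewer cells of a type and less RNA per cell cannot be told apart.

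Of the 9 members, 5 were higher in AAV8-AGXT livers at an adjusted p under 0.05 (edgeR's quasi-likelihood test, Benjamini-Hochberg adjustment over all 15248 genes), beside 2.45% of all genes tested. They were Gnmt, Mat1a, Ahcy, Cth and Shmt1. None was lower at this threshold, beside 1.9% of all genes, and 0 were lower at an unadjusted p under 0.05 or by DESeq2 or limma-voom, since all 9 fitted log2 fold changes were above 0. The same 5 genes were those whose groups did not overlap, each with AAV8-AGXT above, beside 8.93% of all genes without overlap in this direction and 7.63% in the other. The members and the other gene lists were chosen with earlier results of these data known. The shares of all genes set beside their counts are therefore descriptions and no test of a list. The median log2 fold change was 0.59 over the 9 members, 0.12 over the 50 other pathway genes tested and 0.02 over all genes tested. It was 0.26 over the hepatocyte markers, 0.55 over the periportal and 1.23 over the pericentral hepatocyte markers. Over the marker lists of other liver cell types it ran from -1.23 (cholangiocyte) to 0.20 (endothelial cell).

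**Figure D1:**
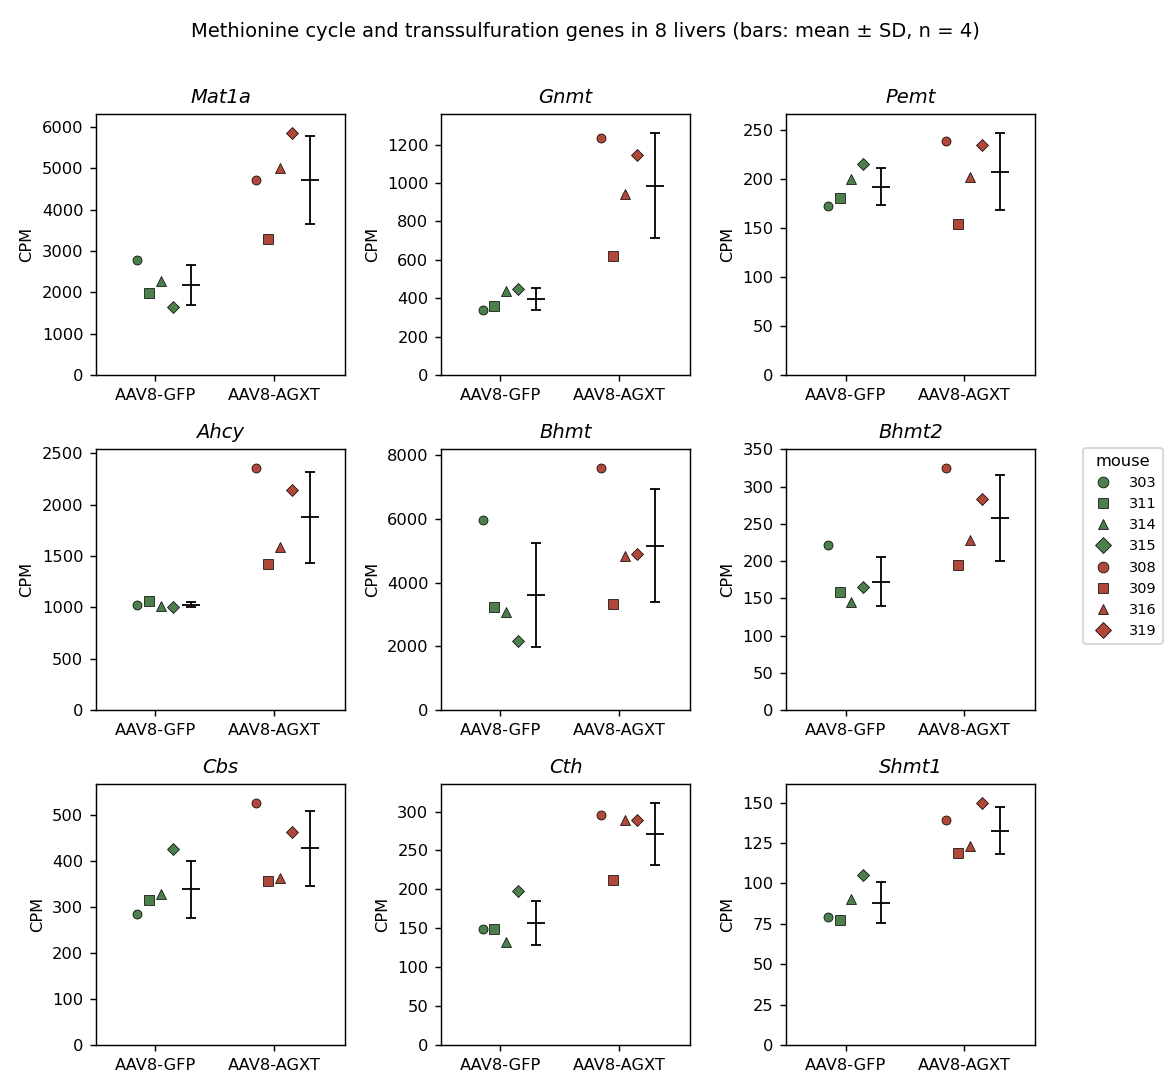
Normalized level of each of the 9 genes, in CPM, in the 4 AAV8-GFP and the 4 AAV8-AGXT livers, with 1 symbol per mouse and the mean ± SD beside each group. Mat1a, Gnmt, Ahcy, Cth and Shmt1 do not overlap between the groups, whereas mouse 309 lies within or below the AAV8-GFP range for Pemt, Bhmt, Bhmt2 and Cbs.

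Mat1a encodes the liver's methionine adenosyltransferase, which makes S-adenosylmethionine (ENSMUSG00000037798, chromosome 14, 41105035 to 41124412, plus strand). It stood at 2774, 1990.0, 2286 and 1639 CPM in AAV8-GFP mice 303, 311, 314 and 315, and at 4731, 3282, 5009.6 and 5854 CPM in AAV8-AGXT mice 308, 309, 316 and 319. The lowest AAV8-AGXT liver, mouse 309, was above the highest AAV8-GFP liver, mouse 303. In the fit Mat1a was 2.17-fold higher, a log2 fold change of 1.12 ± 0.22 (SE; edgeR, adjusted p = 0.0349). No window of 67 bases of its transcripts occurred in another gene.

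Gnmt encodes glycine N-methyltransferase, an abundant liver enzyme that uses up S-adenosylmethionine by methylating glycine (ENSMUSG00000002769, chromosome 17, 46725664 to 46729168, minus strand). Its level was 337, 360.4, 440.5 and 449 CPM in AAV8-GFP mice 303, 311, 314 and 315, and 1235, 621, 945 and 1148 CPM in AAV8-AGXT mice 308, 309, 316 and 319. Every AAV8-AGXT liver was above every AAV8-GFP liver, with mouse 309 nearest to them. The log2 fold change of 1.32 ± 0.22 (SE), or 2.49-fold, was the largest among the 9 members (edgeR, adjusted p = 0.0276).

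Pemt encodes the enzyme that methylates phosphatidylethanolamine to phosphatidylcholine, another large user of S-adenosylmethionine in liver (ENSMUSG00000000301, chromosome 11, 59970614 to 60046489, minus strand). It stood at 173, 181, 199.9 and 215 CPM in AAV8-GFP mice 303, 311, 314 and 315 and at 239, 154, 202 and 235 CPM in AAV8-AGXT mice 308, 309, 316 and 319. The groups overlapped, and the highest and the lowest of the 8 values were both in AAV8-AGXT. Pemt had a log2 fold change of 0.11 ± 0.15 (SE), with a 95% confidence interval from -0.23 to 0.45 (edgeR, adjusted p = 0.691). With libraries scaled by total counts or by hepatocyte markers the fitted value turned to -0.14 and -0.21.

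Ahcy encodes adenosylhomocysteinase, which splits S-adenosylhomocysteine and so removes the inhibitor of methyltransferases (ENSMUSG00000027597, chromosome 2, 155059310 to 155074497, minus strand). The AAV8-GFP livers lay close together, at 1022, 1066, 1012 and 1006 CPM in mice 303, 311, 314 and 315. Mice 308, 309, 316 and 319 of AAV8-AGXT stood at 2357, 1419, 1592 and 2145 CPM. The coefficient of variation was 2.64% within AAV8-GFP and 23.7% within AAV8-AGXT, and the groups did not overlap. Ahcy was 1.83-fold higher, a log2 fold change of 0.87 ± 0.18 (SE; edgeR, adjusted p = 0.0363).

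The Ahcy count is uncertain in its level because of the copies. Of its distinct transcript windows of 67 bases, 66.6% occurred in another gene, 63.6% in Gm4737 and 26% in the processed pseudogene Gm9826. Of the windows of Gm4737, 92% occurred in another gene. Gm4737 stood at 56.9, 48.4, 61.9 and 65.9 CPM in mice 303, 311, 314 and 315 and at 136, 131, 116 and 132 CPM in mice 308, 309, 316 and 319, with no overlap. Its log2 fold change was 1.14 ± 0.12 (SE), with an adjusted p of 0.00924 (edgeR) and of 0.0122 to 0.0414 in the fits that left out a mouse. Gm9826 stood at 34.1 ± 4.8 and 71 ± 27.7 CPM (SD, n = 4 each; edgeR, adjusted p = 0.0426). How many of the read pairs on these rows came from Ahcy transcripts cannot be told apart from the counts. With the counts of Ahcy and its copies Gm4737, Gm9826 and Gm5638 summed, the log2 fold change was 0.89 (edgeR, adjusted p = 0.0343). Gm9826 and Gm5638 were added for their shared sequence after the members' values had been seen.

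**Figure D2:**
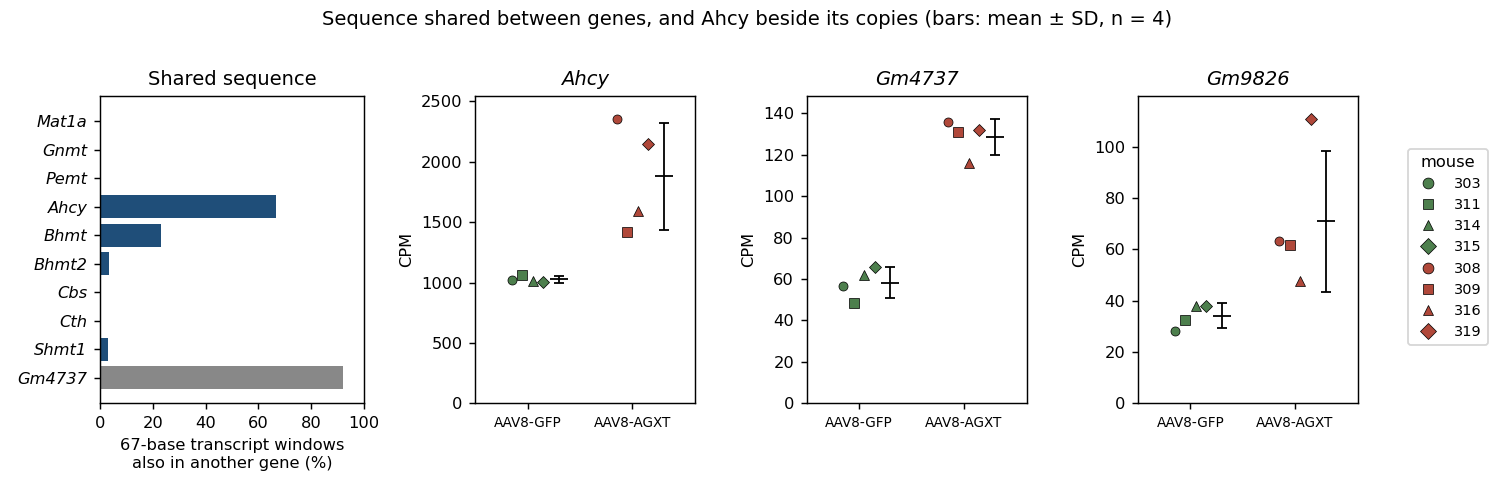
Left, the percentage of each gene's 67-base transcript windows that also occur in another gene, for the 9 members (blue) and Gm4737 (grey). Right, CPM of Ahcy, Gm4737 and Gm9826 in each liver with the mean ± SD of each group. Ahcy shares 66.6% of its windows, and its row and both copies do not overlap between the groups.

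Bhmt encodes betaine-homocysteine methyltransferase, which returns homocysteine to methionine with betaine (ENSMUSG00000074768, chromosome 13, 93616675 to 93637961, minus strand). It was the member with the most counts and the widest spread within AAV8-GFP, with a coefficient of variation of 45.3%. Mice 303, 311, 314 and 315 stood at 5951, 3224, 3069.6 and 2170.3 CPM, and mice 308, 309, 316 and 319 at 7596, 3334, 4824 and 4899 CPM. AAV8-GFP mouse 303 was above 3 of the 4 AAV8-AGXT livers. The log2 fold change was 0.52 ± 0.33 (SE), with a 95% confidence interval from -0.22 to 1.26 (edgeR, adjusted p = 0.346), which spans a fall as well as a 2-fold rise. Without mouse 303 the log2 fold change was 0.87 (edgeR, adjusted p = 0.125), and without mouse 308 it was 0.26 (edgeR, adjusted p = 0.679).

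Bhmt shared 23% of its windows with other genes, 21.6% with Gm5096 and 11.7% with the pseudogene Bhmt-ps1. Mouse 303 also stood apart in Bhmt-ps1, at 35 CPM against 1.72 to 5.87 CPM in the other 7 livers. Gm5096 stood at 138 ± 48.6 and 292 ± 116 CPM in the respective groups (SD, n = 4 each; edgeR, adjusted p = 0.0692). With these copies summed, Bhmt had a log2 fold change of 0.54 (edgeR, adjusted p = 0.311). Both copies were added for their shared sequence after the members' values had been seen.

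Bhmt2 encodes the related enzyme that uses S-methylmethionine as methyl donor (ENSMUSG00000042118, chromosome 13, 93655720 to 93674302, minus strand). It stood at 221, 159, 145 and 165 CPM in mice 303, 311, 314 and 315 and at 325, 195, 228 and 283 CPM in mice 308, 309, 316 and 319. The groups overlapped only through AAV8-GFP mouse 303, which was above mouse 309. The log2 fold change was 0.58 ± 0.19 (SE), with a 95% confidence interval from 0.16 to 1.00, and the adjusted p missed the threshold in edgeR (0.0941) but not in DESeq2 (0.0361).

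Cbs encodes cystathionine beta-synthase, which joins homocysteine to serine and commits it to transsulfuration (ENSMUSG00000024039, chromosome 17, 31608894 to 31637238, minus strand). It stood at 284, 316, 329 and 427 CPM in mice 303, 311, 314 and 315, and at 527, 357, 363 and 464 CPM in mice 308, 309, 316 and 319. Mouse 315 of AAV8-GFP was above mice 309 and 316 of AAV8-AGXT. Cbs had a log2 fold change of 0.34 ± 0.18 (SE), with a 95% confidence interval from -0.06 to 0.73 (edgeR, adjusted p = 0.257), and it was 0.21 without mouse 308.

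Cth encodes cystathionine gamma-lyase, which cleaves cystathionine to cysteine in the next step (ENSMUSG00000028179, chromosome 3, 157894248 to 157925077, minus strand). Mice 303, 311, 314 and 315 stood at 149, 149, 132 and 198 CPM. Mice 308, 316 and 319 lay together at 295, 289 and 289.7 CPM, and mouse 309 stood below them at 212 CPM. The groups did not overlap, although mouse 309 was close to AAV8-GFP mouse 315. Cth was 1.73-fold higher, a log2 fold change of 0.79 ± 0.16 (SE; edgeR, adjusted p = 0.0363).

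Shmt1 encodes the cytosolic serine hydroxymethyltransferase, which interconverts serine and glycine and loads folate with the carbon unit used for remethylation (ENSMUSG00000020534, chromosome 11, 60788104 to 60811718, minus strand). It was at 79.2, 77.4, 90.2 and 105 CPM in mice 303, 311, 314 and 315 and at 139, 119, 123 and 149.8 CPM in mice 308, 309, 316 and 319. No AAV8-AGXT liver reached down to the AAV8-GFP range. The log2 fold change was 0.59 ± 0.13 (SE), or 1.51-fold (edgeR, adjusted p = 0.0413). Its exons overlap those of Smcr8 on the opposite strand over 4.74% of their bases, and the strand option of the counting is not given in the sources used here.

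**Figure D3:**
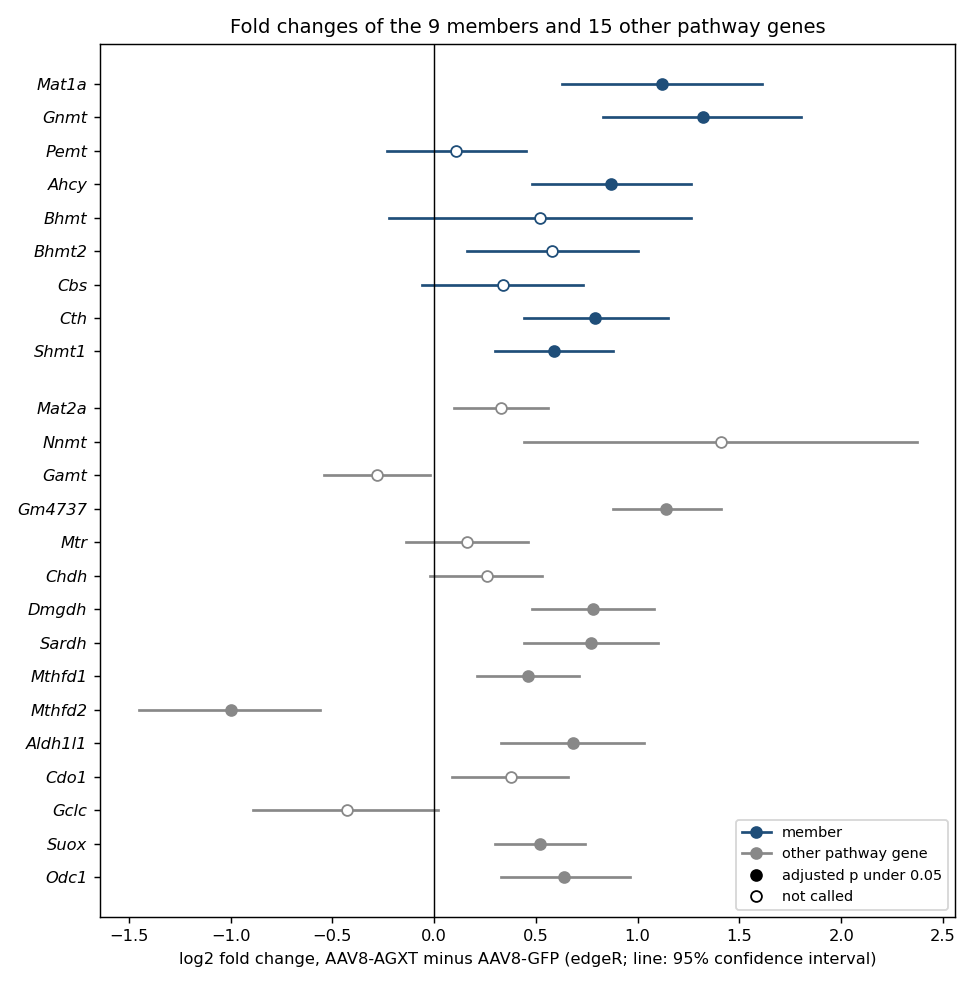
Log2 fold change of AAV8-AGXT against AAV8-GFP with its 95% confidence interval (edgeR) for the 9 members (blue) and the 15 other pathway genes named in the text (grey), with filled points at an adjusted p under 0.05. All 9 member points lie above 0, from 0.11 for Pemt to 1.32 for Gnmt, and the intervals of Pemt, Bhmt and Cbs cross 0.

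The calls depended on single mice. Without mouse 309, the lowest AAV8-AGXT liver, all 5 calls were kept. Without mouse 315, Gnmt, Cth and Shmt1 kept theirs, without mouse 316 Gnmt and Ahcy did, without mouse 303 Mat1a and Gnmt did (Gnmt at an adjusted p of 0.04995), and without mouse 308 Gnmt did. No member was called without mouse 311, with adjusted p of 0.115 to 0.146 over the 5 genes, without mouse 314, with 0.0798 to 0.0959, or without mouse 319, with 0.0774 to 0.104 (all edgeR). The sizes moved less, since the log2 fold changes of the 5 genes stayed between 0.52 and 1.46 over these 8 fits. The number of genes higher in the whole table moved in the same fits, from 374 with all mice to 2 without mouse 311, 11 without mouse 314 and 12 without mouse 319.

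**Figure D4:**
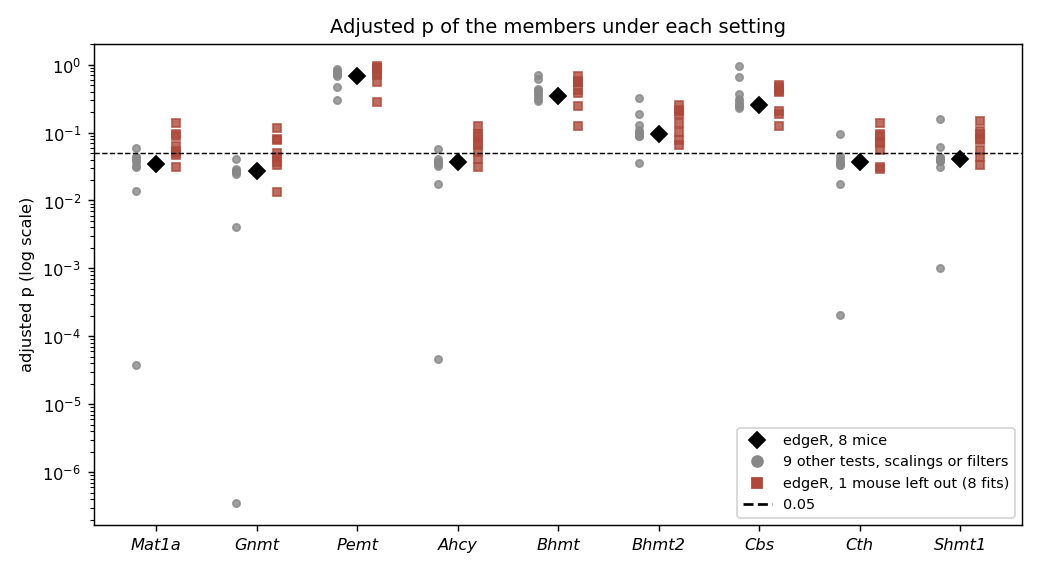
Adjusted p (log scale) of each member with all 8 mice in edgeR (black diamonds), under 9 other tests, scalings or filters (grey circles) and with 1 mouse left out of the edgeR fit (red squares), beside the threshold of 0.05 (dashed). Pemt, Bhmt and Cbs are above the line in every fit, and for the 5 called genes the fits with a mouse left out lie on both sides of it.

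The way the libraries were scaled also moved the calls. Scaling by total counts shifted the median log2 fold change of all genes from 0.02 to -0.22, and scaling by the summed hepatocyte markers shifted it to -0.29. Gnmt, Mat1a, Ahcy and Cth were still called with total counts, and Gnmt alone was called with hepatocyte markers (log2 fold change of 0.99, adjusted p = 0.0409 in edgeR). Over all genes the split of calls moved from 374 higher and 290 lower to 144 and 857 with total counts and to 49 and 236 with hepatocyte markers. Such scaling shifts all genes by nearly the same amount. The place of the 9 members relative to the median gene could therefore hardly change, and these fits do not test it.

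Levels between genes can be compared only per length, here as RPKM (CPM per kilobase of merged exons). The RPKM of Ahcy and Bhmt are uncertain, as 66.6% and 23% of their windows occur in other genes. Pairs aligned at several places were not counted. Merged exons take in all annotated transcripts of a gene, with 7485 bases for Cbs and 1206 for Gnmt, which also bears on the order. In AAV8-GFP livers Mat1a (626 ± 139 RPKM) and Bhmt (626 ± 283) were the highest, followed by Ahcy (366 ± 9.65), Gnmt (329 ± 46.7), Pemt (91.4 ± 8.79), Bhmt2 (69.9 ± 13.6), Cth (56.1 ± 10.2), Cbs (45.3 ± 8.26) and Shmt1 (22.6 ± 3.24; SD, n = 4 each). The ranges of neighbours in this order overlapped, except between Gnmt and Pemt and between Cbs and Shmt1. In AAV8-AGXT livers the order was Mat1a (1361 ± 309), Bhmt (897 ± 308), Gnmt (819 ± 226), Ahcy (669.5 ± 159), Bhmt2 (105 ± 23.4), Pemt (98.6 ± 18.6), Cth (97.3 ± 14.3), Cbs (57.2 ± 11) and Shmt1 (34.1 ± 3.7). There the neighbours without overlap were Ahcy and Bhmt2, Cth and Cbs, and Cbs and Shmt1. Mat1a, Bhmt, Ahcy and Gnmt were the 4 highest in both groups.

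**Figure D5:**
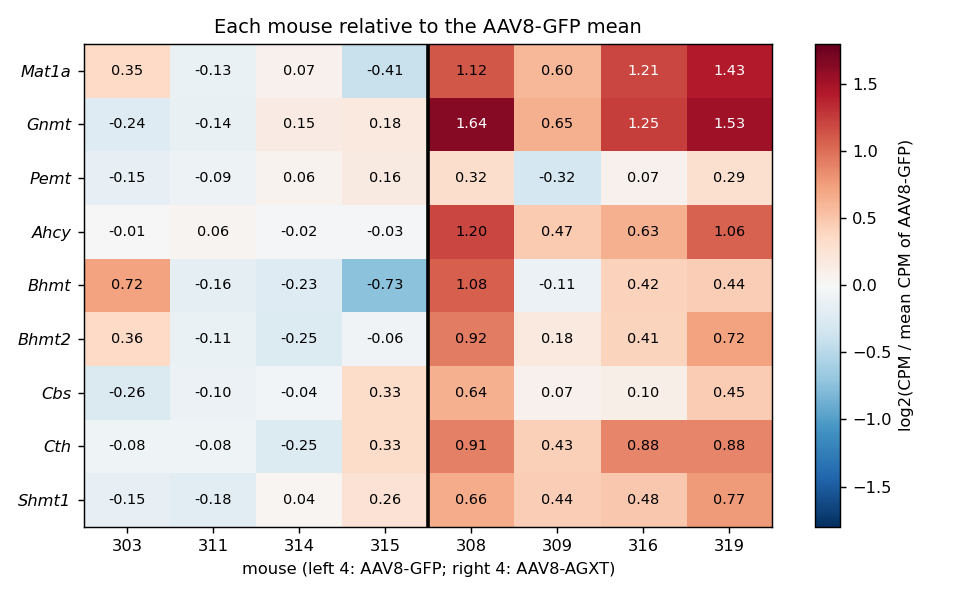
Log2 of each liver's CPM over the AAV8-GFP mean, for the 9 members (rows) in the 8 mice (columns), with red for higher and blue for lower. The AAV8-AGXT columns run from -0.32 (Pemt in mouse 309) to 1.64 (Gnmt in mouse 308), and mouse 309 is the lowest of its group in every row.

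Some members varied together between mice of 1 group, and others did not. Mouse 309 was the lowest AAV8-AGXT liver for all 9 genes and mouse 308 the highest for 7. Among the AAV8-GFP livers, mouse 315 was the highest for 5 genes and mouse 303 for 3, namely Mat1a, Bhmt and Bhmt2. Mouse 315 was also the lowest for Mat1a, Ahcy and Bhmt, and mouse 303 for Gnmt, Pemt and Cbs. After removal of the group means, Pearson's r of log2 CPM over the 8 mice had a median of 0.53 over the 36 pairs of members, from -0.25 for Bhmt and Shmt1 to 0.99 for Gnmt and Pemt. Gnmt and Pemt ranked the 4 mice of each group in the same order, although their log2 fold changes were 1.32 and 0.11. All these values share the same 8 libraries and their scaling, and they are given as descriptions.

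Ratios of 2 genes within a library need no scaling between libraries, and 4 were compared on the log2 scale by an exact permutation test (two-sided, 70 arrangements), whose smallest p is 0.0286. Gnmt to Pemt was 1.94, 1.99, 2.2 and 2.09 in mice 303, 311, 314 and 315 and 5.17, 4.03, 4.67 and 4.89 in mice 308, 309, 316 and 319. The groups were apart, and the mean log2 ratio was 1.19 higher in AAV8-AGXT (exact permutation p = 0.0286, 0.0571 after adjustment over the 4 ratios). Cth to Cbs was 0.401 to 0.524 in AAV8-GFP and 0.561 to 0.797 in AAV8-AGXT, a log2 difference of 0.46 with the same exact permutation p of 0.0286 and adjusted value of 0.0571. Mat1a to Mat2a, the liver form against the form of most other tissues, was 12.6 to 24.3 in AAV8-GFP and 20.6 to 33.7 in AAV8-AGXT, which overlapped (log2 difference 0.78, exact permutation p = 0.0571, adjusted 0.0762). Bhmt to Bhmt2 was 13.2 to 26.9 and 17.1 to 23.3, a log2 difference of -0.02 (exact permutation p = 0.971). After the adjustment no ratio was under 0.05.

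Of the 51 other genes listed around the cycle, 50 were tested, 7 were higher and 1 was lower, beside 2.45% and 1.9% of all genes. DESeq2 called 15 higher and 4 lower, beside 1077 higher and 1054 lower of all 15248 genes tested. The groups did not overlap for 16 higher and 4 lower genes of this list, beside 8.93% and 7.63% of all genes. In the list of 4 genes for S-adenosylhomocysteine and adenosine, the 1 called was the Ahcy copy Gm4737, which is among the 7 higher. Of the windows of Gm4737, 87.8% occurred in Ahcy. How many of its read pairs came from Ahcy transcripts cannot be told from the counts, so it is not taken as a separate result. In choline and betaine oxidation, 2 of 5 genes were higher. They were Dmgdh, the mitochondrial dimethylglycine dehydrogenase, at 208 ± 29.4 and 357 ± 26.5 CPM (edgeR, adjusted p = 0.0283), and Sardh, sarcosine dehydrogenase, which oxidizes the product of Gnmt, at 380.4 ± 56.9 and 649 ± 75.7 CPM (edgeR, adjusted p = 0.0344; SD, n = 4 each). Chdh, which oxidizes choline toward betaine, had a log2 fold change of 0.26 (95% confidence interval -0.02 to 0.53), which became -0.05 with hepatocyte marker scaling. Dmgdh lost its call without mouse 311, 314 or 319, and Sardh also without 303 or 308, with adjusted p of at most 0.115 and 0.127 (edgeR). Dmgdh and Sardh each overlap an antisense gene, over 6.3% and 3.46% of their exonic bases.

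Among the folate genes, 9 of 10 were tested, with 2 higher and 1 lower. Aldh1l1, the cytosolic formyltetrahydrofolate dehydrogenase, stood at 307 ± 46.3 and 491 ± 73.8 CPM, and Mthfd1, the cytosolic trifunctional folate enzyme, at 114 ± 9.59 and 157 ± 15.6 CPM (SD, n = 4 each; edgeR, adjusted p = 0.0451 and 0.0495). Mthfd2, a mitochondrial folate enzyme, was lower in every AAV8-AGXT liver, at 5.74, 6.98, 6.87 and 5.07 CPM in mice 303, 311, 314 and 315 and 2.35, 3.67, 3.44 and 2.83 CPM in mice 308, 309, 316 and 319. Its fitted level was 0.50-fold that of AAV8-GFP, with a 95% confidence interval of the log2 fold change from -1.45 to -0.56 (edgeR, adjusted p = 0.0349). Of the 3 genes, Mthfd2 kept its call without mouse 315, 309 or 316, Aldh1l1 without 315 or 316, and Mthfd1 without 315, and each lost it without any other mouse, with adjusted p of at most 0.135, 0.156 and 0.176 (edgeR). Mthfd1 was called under 3 of the 9 other settings, DESeq2, limma-voom and robust edgeR, and its adjusted p reached 0.457 with hepatocyte marker scaling. Mtr, methionine synthase, had a log2 fold change of 0.16 (95% confidence interval -0.14 to 0.46). Mtr turned to -0.07 with total counts and to -0.13 with hepatocyte marker scaling.

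Among the other users and makers of S-adenosylmethionine, 0 of 9 genes were called by edgeR or limma-voom, against 2 higher by DESeq2. DESeq2 called 1077 of all 15248 genes tested higher. At an unadjusted p under 0.05, 3 of the 9 were higher and 1 was lower, without the share of all genes at that threshold beside them. Nnmt, nicotinamide N-methyltransferase, was at 45.3 to 58.6 CPM in AAV8-GFP and at 119, 45.4, 112 and 286 CPM in mice 308, 309, 316 and 319, so that mouse 309 was within the AAV8-GFP range (log2 fold change 1.41 ± 0.43 SE; edgeR, adjusted p = 0.0833, and 0.0358 without mouse 309). Gamt, which makes creatine, had a log2 fold change of -0.28 (edgeR, adjusted p = 0.158), and Mat2a one of 0.33 (edgeR, adjusted p = 0.0832). Of 10 genes of cysteine use, Suox, sulfite oxidase, was higher (81.6 ± 6.72 and 117 ± 6.89 CPM, SD, n = 4 each; edgeR, adjusted p = 0.0341). Cdo1, cysteine dioxygenase, had a log2 fold change of 0.38 (95% confidence interval 0.09 to 0.66; edgeR, adjusted p = 0.103), and Gclc, the catalytic subunit of the ligase that starts glutathione synthesis, one of -0.43 (-0.89 to 0.02). Of 9 genes of polyamine synthesis and methionine salvage, Odc1, ornithine decarboxylase, was higher (60.8 ± 1.82 and 95 ± 19.3 CPM; edgeR, adjusted p = 0.0413). Suox kept its call only without mouse 315, 309 or 316 and Odc1 only without 309 or 316, with adjusted p of at most 0.127 and 0.143 over all 8 mice left out in turn (edgeR). Suox, Odc1 and Aldh1l1 lost their calls with total counts and with hepatocyte marker scaling, and Dmgdh and Sardh with hepatocyte marker scaling.

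The levels of other marker lists are given beside the members, and their part in these results was not tested. Over all 15248 genes tested, edgeR called 374 higher and 290 lower, limma-voom 404 and 278, and DESeq2 1077 and 1054. The share of all genes at an unadjusted p under 0.05 is not given here, so marker counts at that threshold have no background beside them. Of 6 pericentral hepatocyte markers, 3 were called higher by edgeR and limma-voom and 6 by DESeq2 and at an unadjusted p under 0.05, and their summed level was 7437 to 9362 CPM in AAV8-GFP and 15357 to 20272 CPM in AAV8-AGXT. Of 6 periportal markers 0 were called by edgeR, DESeq2 or limma-voom and 2 were higher at an unadjusted p under 0.05, at 3513 to 6304 and 5764 to 7203 CPM. Of 10 clock genes, edgeR called 1 higher, Ciart, and 0 lower, limma-voom 3 higher and 1 lower, and DESeq2 4 higher and 2 lower, and at an unadjusted p under 0.05 4 were higher and 2 lower. The clock genes summed to 223 to 401 and 441 to 506 CPM. Of the clock genes, 8 had a log2 fold change above 0, and the groups did not overlap for 3 higher and 2 lower genes. The 3 higher were Ciart, Dbp and Per3. Mean levels in AAV8-GFP and AAV8-AGXT were 17.5 and 69.4 CPM for Dbp and 7.37 and 19.4 CPM for Per3 (edgeR, adjusted p = 0.0724 and 0.0622). The 2 lower were Arntl and Npas2, with log2 fold changes of -0.83 and -1.46 (edgeR, adjusted p = 0.0843 and 0.0546). Dbp, Per3, Arntl and Npas2 were chosen for mention after their values were seen. Stellate cell and fibroblast markers summed to 423 to 743 and 181 to 485 CPM and macrophage markers to 419 to 726 and 201 to 580.5 CPM, with 0 of 5 called in each list by edgeR and 1 lower in each by DESeq2. At an unadjusted p under 0.05, 3 stellate cell and fibroblast markers and 1 macrophage marker were lower. Cholangiocyte markers summed to 23.5 to 62.6 and 13.7 to 33.2 CPM, with 0 of 4 called by edgeR, 3 lower by DESeq2 and 4 lower at an unadjusted p under 0.05. Mouse 308, the highest liver for 7 members, had the highest hepatocyte sum and the lowest stellate cell and macrophage sums. Mouse 309, the lowest of its group for all 9 members, was above mouse 316 in the hepatocyte sum (75622 and 72314 CPM). It had the highest stellate cell sum of its group (485 CPM), and mouse 319 had the highest macrophage sum (580.5 CPM).

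Searches over the 15239 other tested genes named those most like a member in log2 CPM over the 8 mice. For Gnmt they were Pdcd6 (Pearson's r = 0.994), Fam160b1 (0.985) and Pomt2 (0.983), and for Bhmt they were Cntnap1 (0.991), Tipin (0.978) and Myl4 (0.963). With 8 points and so many genes searched, these are descriptions of these libraries.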

How the data were processed

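Liver mRNA of 8 mice was sequenced as stranded paired-end libraries, 1 per mouse. According to the submitters' processing notes and the study's methods, the authors used FastQC 0.11.8, Trimmomatic 0.35, HISAT2 2.1.0.13 on GRCm38 and HTSeq 0.6.0 with Ensembl release 90. The strand option is not given in the sources used here. The deposited values are raw read-pair counts per gene, with no normalization, and read pairs aligned at several places were tallied apart. Mice were grouped by the labelled treatment. Of 52636 genes, 52489 were matched to GENCODE M21 and 147 were not.

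Genes were kept by filterByExpr (15248) and tested in R 4.3.3 with edgeR 4.0.16 (TMM, quasi-likelihood, treatment only, Benjamini-Hochberg). CPM use TMM-scaled library sizes, and log2 CPM a prior count of 2. Ratios added 0.5 to each count. Alternatives were DESeq2 1.42.0, limma 3.58.1 (voom), robust estimation, 4 other scalings, 2 other filters, each mouse left out and near copies summed. The fit was tested on simulated counts with known changes. These were drawn with the common dispersion for every gene, so they do not test the fit at each member's own spread. Members and lists were chosen with earlier results of these data known. Named genes were the members, Agxt, every other pathway gene called, and Mat2a, Nnmt, Gamt, Gm4737, Mtr, Chdh, Dmgdh, Sardh, Cdo1 and Gclc; 1 further gene of this rule is not reported here. Windows of 67 bases were compared among all GENCODE M21 transcripts, without modelling read pairs.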

Additional observations from a re-analysis of the deposited data

Results flagged for a closer look

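Of 58 groups of 4 livers examined for a mouse far from the others (25 genes and 4 ratios in both treatments), 3 stood out by Dixon's ratio, the gap to the nearest mouse over the whole range, where chance flags about 5% of groups. Cth in AAV8-AGXT had a ratio of 0.937, with mouse 309 at 212 CPM below the 289 to 295 CPM of the other 3. Cdo1 in AAV8-AGXT had a ratio of 0.880, with mouse 309 at 1392 CPM below 1554 to 1577 CPM. Chdh in AAV8-AGXT had a ratio of 0.917, with mouse 316 at 204 CPM below 237 to 239.8 CPM.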

How the results depend on the processing

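The count of members higher was 5, and it was 4 with total counts, 6 with DESeq2 and 1 with hepatocyte marker scaling, and from 0 to 5 with each mouse left out. The other pathway genes higher numbered 7, but 15 with DESeq2, 3 with total counts, 1 with hepatocyte marker scaling and from 1 to 8 with a mouse left out. Those lower numbered 1, but 4 with DESeq2, 4 with total counts, 3 with hepatocyte marker scaling and from 0 to 1 with a mouse left out. Over all genes, 374 were higher, but 1077 with DESeq2, 144 with total counts, 49 with hepatocyte marker scaling and from 2 to 379 with a mouse left out, and 290 were lower, but 1054 with DESeq2, 857 with total counts and from 0 to 325 with a mouse left out. The cause was not tested. For the members singly, 27 values with a mouse left out lost a call and 45 kept their side of the threshold. Under the other settings 5 lost a call, 1 gained a call (Bhmt2 with DESeq2), 75 kept their side of the threshold and 2 reversed in sign. The values that kept their side include those of Pemt, Bhmt, Bhmt2 and Cbs, which were not called in the main fit. Reversed in sign were Pemt (-0.14 with total counts and -0.21 with hepatocyte marker scaling), Mtr (-0.07 and -0.13), Chdh (-0.05 with hepatocyte marker scaling) and the log2 ratio of Bhmt to Bhmt2, which was -0.02 and from -0.21 to 0.13 with a mouse left out. The other 3 ratios kept their sign in every setting. No paired analysis was possible because animal numbers are not shared between the groups.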
